A study of Mus musculus with 12 samples.

Results

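The genes of the proteasome were followed in mouse satellite cells. They were taken as all protein-coding rows of the count table whose symbol begins with Psma, Psmb, Psmc, Psmd, Psme, Psmf or Psmg followed by a digit, which gave 50 of 55401 genes. The rule used names and no measured value, although it was set with earlier results of these data known. Of these 50 genes, 48 held enough counts to be tested, among 25771 genes tested in all. The exceptions were Psma8, a subunit of the testis proteasome, with 10 counts summed over the WT quiescent libraries, and Psme2b, with 1. Psmc3ip, which also carries such a name, encodes a factor of meiotic recombination and not a subunit, so it is counted among the 50 genes and described apart.

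Satellite cells, the stem cells of skeletal muscle, were sorted from hind limbs by the fluorescence of a Pax7-ZsGreen reporter, and their RNA was sequenced as bulk polyA libraries. All mice carried CXCR4 FL/FL, a floxed allele of the chemokine receptor gene Cxcr4, and all received 80 mg/kg tamoxifen on 5 days. WT mice lacked cre, whereas Cxcr4 KO mice carried Pax7-creERT2, a tamoxifen-inducible recombinase driven in Pax7-expressing cells. Freshly sorted cells, called quiescent, gave 4 libraries per genotype, and cells cultured overnight, called activated, gave 2 libraries per genotype. The mice were adults of 3 to 4 months. Whether the libraries of a group came from separate animals was not given in the sources used here, so p-values measure only the spread between these libraries.

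The 26S proteasome degrades proteins that carry ubiquitin chains. Its 20S core is a barrel of alpha rings, encoded by Psma genes, around beta rings, encoded by Psmb genes. Its 19S cap combines ATPases (Psmc), which unfold substrates, with non-ATPase subunits (Psmd), some of which bind ubiquitin or remove it. The catalytic beta subunits PSMB5, PSMB6 and PSMB7 can be replaced by the inducible subunits PSMB8, PSMB9 and PSMB10, which form the immunoproteasome and are known to respond to interferon. The cap can likewise be replaced by activators such as PA28, made of PSME1 and PSME2 or of PSME3 alone. In muscle, the proteasome is known for protein turnover during remodelling and atrophy.

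Depth was 12775593 to 23717013 counts in the quiescent and 3172164 to 5427280 counts in the activated libraries. A ribosomal RNA sequence, CT010467.1, took 11.5% to 40.3% of the counts of the activated libraries and at most 0.807% of those of the quiescent libraries. The targeted gene, Cxcr4, stood at 61.2, 59.1, 89.6 and 112 CPM (read counts relative to the TMM-scaled size of the library) in the WT quiescent libraries and at 17.6, 21.2, 12.5 and 17.1 CPM in the KO quiescent libraries. It stood at 33.3 and 14.5 CPM in the WT activated and at 5.39 and 13.7 CPM in the KO activated libraries, so that the lower WT and the higher KO value were close. The 10 satellite cell markers summed to 5368 to 8689 CPM in the quiescent and 2393 to 3566 CPM in the activated libraries, while 6 muscle fibre markers summed to 224 to 787 CPM and 5964 to 14604 CPM, respectively. Transcripts of the Y chromosome marked the quiescent libraries (Ddx3y, 461 CPM in the WT mean) and Xist marked the activated libraries (626 CPM in the WT mean against 4.04 CPM in the quiescent WT mean), so culture and the sex of the mice cannot be told apart, nor can either be told apart from depth. In bulk RNA, fewer cells of a type and less RNA per cell cannot be told apart either.

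Promoter sequences are shown as examples for a pair of constitutive catalytic subunits, an ATPase and both subunits of the mixed PA28 ring, and they were not picked by a rule of size. RefSeq windows on GRCm38.p6, from 250 bases before to 50 bases after the start, matched 42 of the 50 genes, and each was searched on both strands for the antioxidant response element TGACNNNGC, the CCAAT box CCAAT and the interferon-stimulated response element (GAAA and again GAAA after a gap of 2 bases). The antioxidant element, a known site of the transcription factors that drive proteasome genes, was found in 6 of the 42 windows (14.3%) against 12.4% of all 32851 windows. CCAAT was found in 15 windows (35.7%) against 37.4% of all windows. The interferon element was found in 5 windows (11.9%), those of Psmb3, Psmd4, Psmd9, Psme1 and Psmg4, against 3.44% of all windows, and none of these 5 genes is an inducible catalytic subunit. The window of Psmd9, counted for both the antioxidant and the interferon element, lay 58777 bases from the start of the gene in the GENCODE annotation. Each of the 42 genes gave the 1 window nearest that start, whereas the 32851 windows were taken without such a choice. Such matches are descriptions of letters and not of binding. Capitals below mark the matched letters in the 250 bases before the start of a constitutive catalytic subunit on chr14:54617996-54618245 (minus strand), a second one on chr11:70525107-70525356 (plus strand), an ATPase on chr5:21785025-21785274 (plus strand), and the PA28 subunit on chr14:55591102-55591351 (minus strand), which held no match, and in 30 bases around the match of the other PA28 subunit on chr14:55578493-55578522 (plus strand).
Psmb5: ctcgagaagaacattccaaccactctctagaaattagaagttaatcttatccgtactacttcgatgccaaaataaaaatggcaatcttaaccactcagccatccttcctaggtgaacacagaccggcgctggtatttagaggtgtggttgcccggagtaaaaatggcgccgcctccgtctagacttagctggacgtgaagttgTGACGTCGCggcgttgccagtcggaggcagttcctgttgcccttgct
Psmb6: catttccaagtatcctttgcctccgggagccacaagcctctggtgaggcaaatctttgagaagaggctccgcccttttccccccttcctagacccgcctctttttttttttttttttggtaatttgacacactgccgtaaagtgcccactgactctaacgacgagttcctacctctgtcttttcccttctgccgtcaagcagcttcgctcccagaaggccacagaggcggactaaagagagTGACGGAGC
Psmc2: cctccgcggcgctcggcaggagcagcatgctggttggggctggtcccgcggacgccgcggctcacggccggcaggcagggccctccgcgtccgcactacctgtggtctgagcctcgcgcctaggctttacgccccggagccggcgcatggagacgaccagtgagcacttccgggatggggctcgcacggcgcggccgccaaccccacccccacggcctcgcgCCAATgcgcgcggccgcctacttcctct
Psme2: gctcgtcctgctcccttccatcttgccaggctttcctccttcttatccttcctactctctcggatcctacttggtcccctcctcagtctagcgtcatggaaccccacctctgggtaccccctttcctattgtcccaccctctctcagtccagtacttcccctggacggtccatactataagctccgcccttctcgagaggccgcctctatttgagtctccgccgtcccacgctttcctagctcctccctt
Psme1: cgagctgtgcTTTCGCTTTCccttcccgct
The match of Psmb5 began at position -47 from the start, that of Psmb6 at -9 and that of Psmc2 at -28. The match of Psme1, on the opposite strand, began 9 bases after the start, which lay 371 bases from the start of the gene in the GENCODE annotation. The windows of Psmb8 and Psmb9 lay 474 and 434 bases from their GENCODE starts and held no match to the interferon element.

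Levels per kb of exon differed widely between subunits that stand in equal numbers in one particle. The length was that of all annotated exons of a gene merged, and not of the transcript in use. Among 20S subunits it ran from 899 bases (Psmb5) to 4595 bases (Psmb1), so the ratios and orders below depend in part on it. Without length, the WT quiescent means of the 20S subunits ran from 6.40 CPM (Psma5) to 163 CPM (Psmb4). In WT quiescent cells, the 14 standard 20S subunits ranged from 2.69 CPM per kb of exon (Psma2, an alpha subunit) to 83.7 CPM per kb (Psmb4, a non-catalytic beta subunit), a ratio of 31.2, with a median of 9.26 CPM per kb. The 17 subunits of the 19S cap ranged from 2.83 CPM per kb (Psmd1, the scaffold of the cap) to 59.9 CPM per kb (Psmc5, an ATPase), a ratio of 21.2, around a median of 17.6 CPM per kb. The same subunits stood at the ends of both ranges in KO quiescent cells, with ratios of 31.0 and 24.0. In WT activated cells, the lowest 20S subunit was Psmb7 at 4.53 ± 0.660 CPM per kb (SD, n = 2) and the highest was again Psmb4 at 128 ± 3.71 CPM per kb, a ratio of 28.3. The 19S range widened to a ratio of 46.8, from 3.63 CPM per kb for Psmd1 to 170 ± 28.4 CPM per kb for Psmc5. Neighbours in these orders mostly did not differ beyond their spread: in WT quiescent cells Psmb2, Psmb5 and Psma4 stood at 15.9 ± 2.99, 13.4 ± 1.86 and 13.0 ± 1.90 CPM per kb (SD, n = 4).

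**Figure D1:**
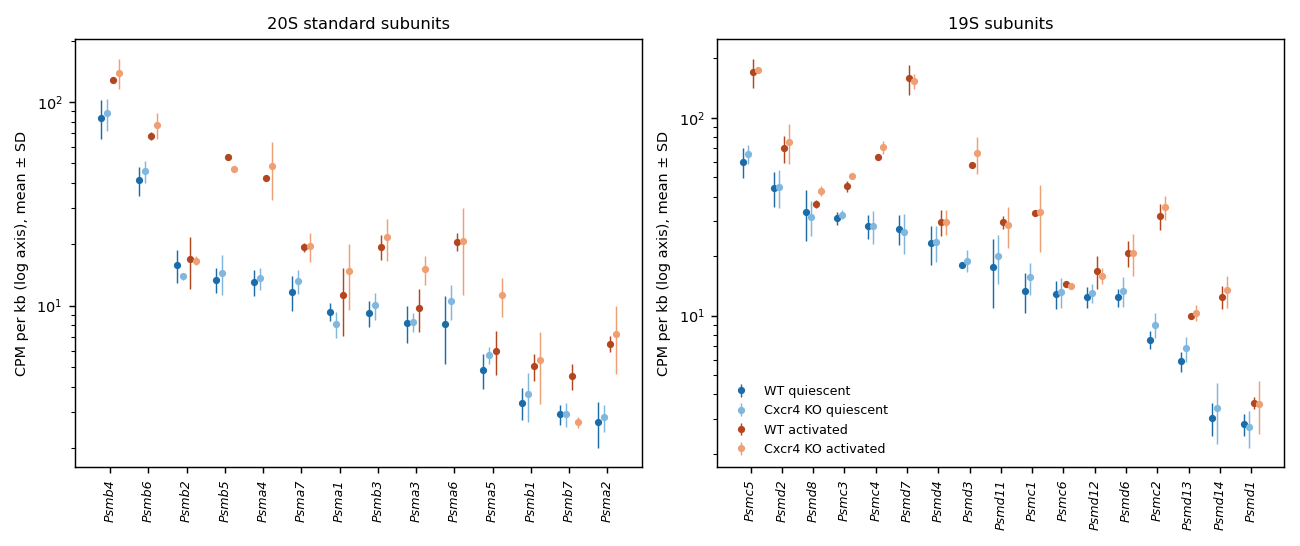
Levels of the 14 standard 20S subunits (left) and the 17 subunits of the 19S cap (right) in CPM per kb of exon on a log axis, as mean ± SD of 4 quiescent or 2 activated libraries, ordered by the WT quiescent mean. Psmb4 led the 20S subunits in all 4 groups, and Psmd7 moved from 27.5 to 158 CPM per kb in WT cells.

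Among all 50 genes ordered by CPM per kb, Psmb4, Psmc5 and Psmd2 held ranks 1, 2 and 3 in WT quiescent cells. Psmd2 is a scaffold subunit of the base. In WT activated cells Psmc5, Psmd7 and Psmb4 held these ranks. The activator Psme1 stood at rank 10 in WT quiescent and rank 29 in WT activated cells, and Psme2 at ranks 15 and 44. The authors' FPKM, deposited as 1 value per group without replicates, gave Psmb4 at 81.2 and 131 and Psme2 at 14.4 and 2.11 in the same pair of groups.

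The comparison of activated with quiescent cells asked which proteasome transcripts changed in culture. Of the standard particle, 7 of 14 subunits of the 20S core and 9 of 17 of the 19S cap were higher in activated WT cells and none was lower, while the inducible subunit Psmb8 and the PA28 subunits Psme1 and Psme2 were lower. In WT cells, 21 of the 48 genes tested were higher and 4 were lower (edgeR quasi-likelihood test, Benjamini-Hochberg adjusted p-value under 0.05), and 23 did not pass. Of all genes tested, 11.5% were higher and 18.3% were lower at this threshold, so the share of proteasome genes that were higher stood above the background and the share that were lower stood below it. The median log2 fold change was 0.66 over the 48 genes and -0.92 over all genes tested. Because proteasome genes are well expressed, the count was also read among well expressed genes, those whose mean log2 CPM exceeded 3. There 19 of 42 proteasome genes were higher and 4 were lower, against 24.2% and 28.4% of 9554 genes, and the medians were 0.66 and -0.12. With the study's thresholds, which add a log2 fold change beyond 1 and a mean count over 10, 17 genes were higher and 4 lower, against 9.65% and 16.5% of all genes.

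Cxcr4 KO cells showed 25 genes higher and 7 lower of 48, where 13.3% of all genes were higher and 20.4% were lower. The median log2 fold change was 0.75, against -0.96 over all genes. Among well expressed genes, 23 of 42 proteasome genes were higher and 5 lower, against 26.8% and 29.9%, and with the study's thresholds 16 were higher and 5 lower, against 11.1% and 18.5%. This KO count rested in part on 1 library: without replicate 1 of the KO activated cells, 14 genes passed in place of 32, and the median was 0.58. In both genotypes together, 22 genes passed in the same direction, 3 passed only the WT test, 10 passed only the KO test and 13 passed neither, and 47 of the 48 had the same sign. The difference between genotypes was itself tested and is given with the comparison of KO and WT cells. Without both activated libraries numbered 2, in which CT010467.1 was highest, 15 genes were higher and 4 lower in WT cells and 20 and 4 in KO cells.

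**Figure D2:**
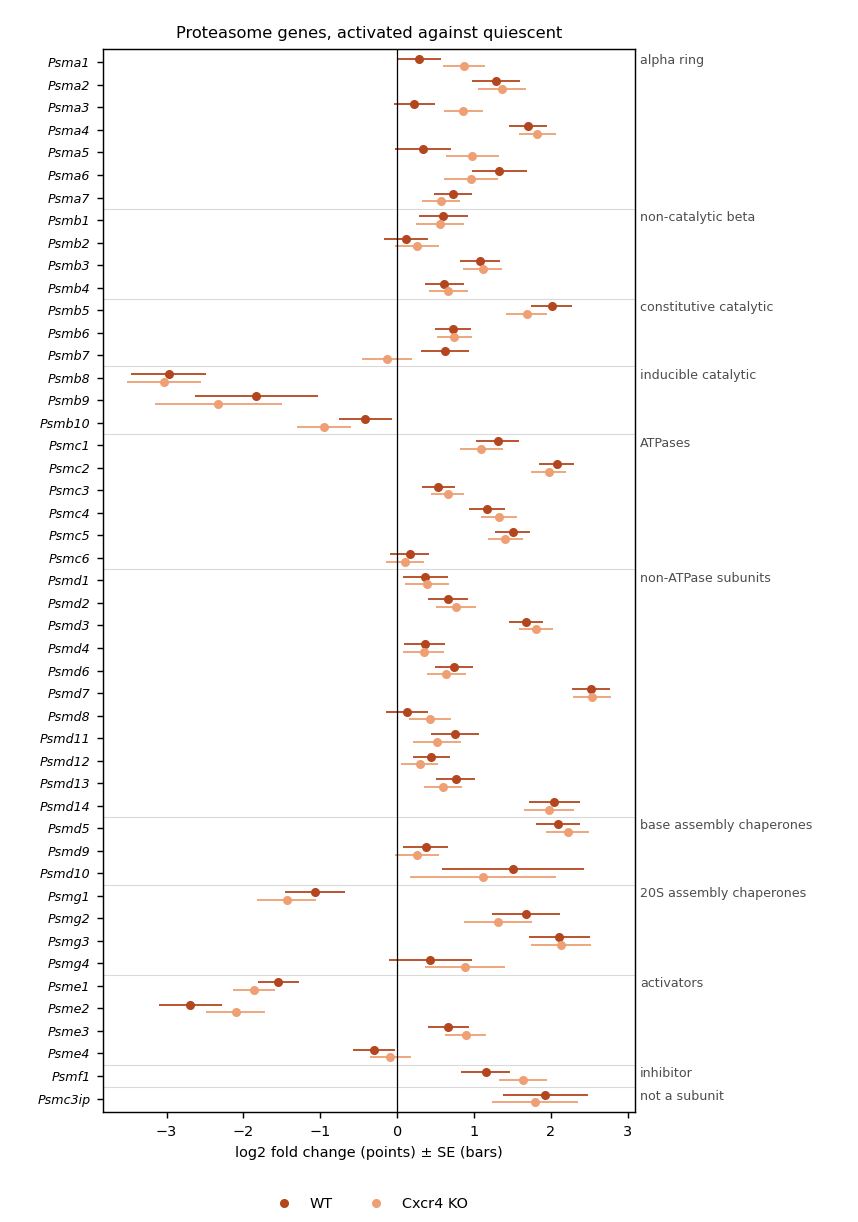
log2 fold change of activated against quiescent cells ± SE for 47 proteasome genes in WT (dark orange) and Cxcr4 KO (light orange) cells, grouped by role. Psmb11 is left out because it held no count in the KO activated libraries. The alpha ring, the ATPases and the non-ATPase subunits lie right of 0, and Psmb8, Psmb9, Psmb10, Psme1, Psme2, Psme4 and Psmg1 lie left of it.

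The non-ATPase subunits of the cap held the highest rise. Psmd7, which forms the deubiquitinating pair of the lid with PSMD14, stood at 56.9, 51.5, 64.5 and 76.1 CPM in the WT quiescent libraries and at 313 and 402 CPM in the WT activated libraries. In KO cells the values were 51.6, 51.6, 56.8 and 80.2 CPM against 368 and 326 CPM. Every activated library lay above every quiescent library by a wide margin. Its log2 fold change was 2.52 ± 0.25 (SE) in WT cells (edgeR adjusted p = 4.0e-07) and 2.53 ± 0.25 in KO cells (edgeR adjusted p = 3.1e-07). Psmd14, the deubiquitinase of the lid, rose by 2.04 ± 0.33 and 1.98 ± 0.33 on the same scale, and Psmd3, a lid subunit, by 1.67 ± 0.22 and 1.80 ± 0.22. In all, 5 of 11 non-ATPase subunits were higher in WT cells and 4 in KO cells, against 11.5% and 13.3% of all genes, and none was lower. The WT calls of Psmd13 (edgeR adjusted p = 0.0568) and Psmd6 (0.0631) were lost without WT quiescent replicate 1. That of Psmd13 was also lost without WT activated replicate 1 (log2 fold change 0.88) or 2 (0.78). That of Psmd6 was also lost without WT activated replicate 2 (0.64). The KO call of Psmd2 was lost without KO quiescent replicate 1 (edgeR adjusted p = 0.0633) or 3 (0.0532). It was also lost without KO activated replicate 1 (log2 fold change 0.5). Other subunits of the same lid did not pass. Psmd8 gave 0.13 ± 0.27 in WT cells, where its libraries overlapped. Psmd12 gave 0.44 ± 0.24, with WT activated libraries at 38.5 and 50.6 CPM above the WT quiescent ones at 28.3 to 36.4 CPM.

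Among the ATPases, 4 of 6 were higher in WT cells and 5 in KO cells, against 11.5% and 13.3% of all genes. The KO calls of Psmc1 (log2 fold change 0.65) and Psmc3 (0.62) were lost without KO activated replicate 1. That of Psmc3 was also lost without KO activated replicate 2 (0.71). Psmc2 stood at 33.2, 36.9, 41.8 and 40.3 CPM in the WT quiescent and at 143 and 178 CPM in the WT activated libraries, a log2 fold change of 2.07 ± 0.23 (edgeR adjusted p = 1.3e-06). Psmc5 gave 1.50 ± 0.23 and Psmc4 1.17 ± 0.24 in WT cells. Psmc6, a member of the same hexamer, gave 0.16 ± 0.25 in WT and 0.10 ± 0.25 in KO cells, with overlapping libraries in both.

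In the alpha ring, 4 of 7 subunits were higher in WT cells and 6 in KO cells, against 11.5% and 13.3% of all genes. The WT call of Psma7 was lost without WT quiescent replicate 1 (edgeR adjusted p = 0.0653) or 2 (0.0646). It was also lost without WT activated replicate 1 (log2 fold change 0.75) or 2 (0.83). That of Psma6 was lost without WT activated replicate 2 (log2 fold change 1.28). Psma4 led with 26.1, 36.4, 28.6 and 32.2 CPM in the WT quiescent and 101 and 99.0 CPM in the WT activated libraries, a log2 fold change of 1.70 ± 0.24 (edgeR adjusted p = 2.6e-05). The values in KO cells were 27.6, 30.5, 36.3 and 35.1 CPM against 141 and 89.0 CPM. Of Psma1, Psma3 and Psma5, which passed only in KO cells, Psma5 and Psma3 are uncertain. For Psma5, reads of 2 processed copies with near-identical sequence made up 11.2% and 15.7% of its counts plus theirs in WT and KO quiescent cells and 32.7% and 43.4% in WT and KO activated cells. For Psma3, with 3 such copies, the shares were 7.26% and 9.48% in quiescent and 20.8% and 13.6% in activated cells. The KO call of Psma5 was also lost without KO quiescent replicate 1 (edgeR adjusted p = 0.0578) or 3 (0.0527) and without KO activated replicate 1 (0.0821) or 2 (0.335), and those of Psma3 (0.217) and Psma1 (0.456) without KO activated replicate 1. Without that library the KO calls of Psma2 (log2 fold change 0.93) and Psma6 (0.41) were lost as well. The KO call of Psma6 was also lost without KO quiescent replicate 1 (edgeR adjusted p = 0.0773), 3 (0.069) or 4 (0.0555). Adding the reads of 26 such copies to their 15 parent genes left the same 25 and 32 calls. Among the non-catalytic beta subunits, Psmb3 was higher in both genotypes (1.08 ± 0.26 and 1.11 ± 0.25), Psmb4 passed in KO cells with an adjusted p of 0.0498 (edgeR) and a log2 fold change of 0.67 ± 0.25, and Psmb1 and Psmb2 passed in neither. The WT call of Psmb3 was lost without WT activated replicate 2 (0.99, edgeR adjusted p = 0.0506) and its KO call without KO activated replicate 1 (0.85, 0.0982). The KO call of Psmb4 was lost without KO quiescent replicate 1 (edgeR adjusted p = 0.0981), 2 (0.0514) or 3 (0.0706) or KO activated replicate 1 (0.407) or 2 (0.0929).

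The constitutive catalytic subunits did not move alike. Psmb5, the chymotrypsin-like subunit (chromosome 14, 54614119 to 54618022 on GRCm38), stood at 10.7, 14.3, 10.9 and 12.4 CPM in the WT quiescent and at 49.7 and 47.3 CPM in the WT activated libraries. The KO libraries gave 9.13, 12.6, 14.5 and 16.0 CPM against 42.1 and 41.8 CPM. The groups did not overlap in either genotype, and the log2 fold change was 2.01 ± 0.27 in WT (edgeR adjusted p = 1.1e-05) and 1.68 ± 0.27 in KO cells (edgeR adjusted p = 6.8e-05). Psmb6, the caspase-like subunit, stood at 70.1, 65.6, 93.4 and 79.8 CPM in the WT quiescent and at 132 and 123 CPM in the WT activated libraries. Its log2 fold change was 0.72 ± 0.23 in WT (edgeR adjusted p = 0.024) and 0.74 ± 0.23 in KO cells (edgeR adjusted p = 0.018). The WT call of Psmb6 was lost without WT quiescent replicate 2 (edgeR quasi-likelihood test, adjusted p = 0.0503), WT activated replicate 1 (0.124) or WT activated replicate 2 (0.0796), and its KO call without KO activated replicate 1 (0.259). Psmb7, the trypsin-like subunit, stood at 9.97, 11.6, 9.17 and 9.34 CPM in the WT quiescent and at 13.9 and 17.1 CPM in the WT activated libraries, and in KO cells at 10.3, 11.4, 8.18 and 10.4 CPM against 8.73 and 9.58 CPM. It passed in neither genotype, and 11.8% of its exon bases overlap Nek6. Of the exon bases of Psmb5, 12.1% overlap Mir686.

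**Figure D3:**
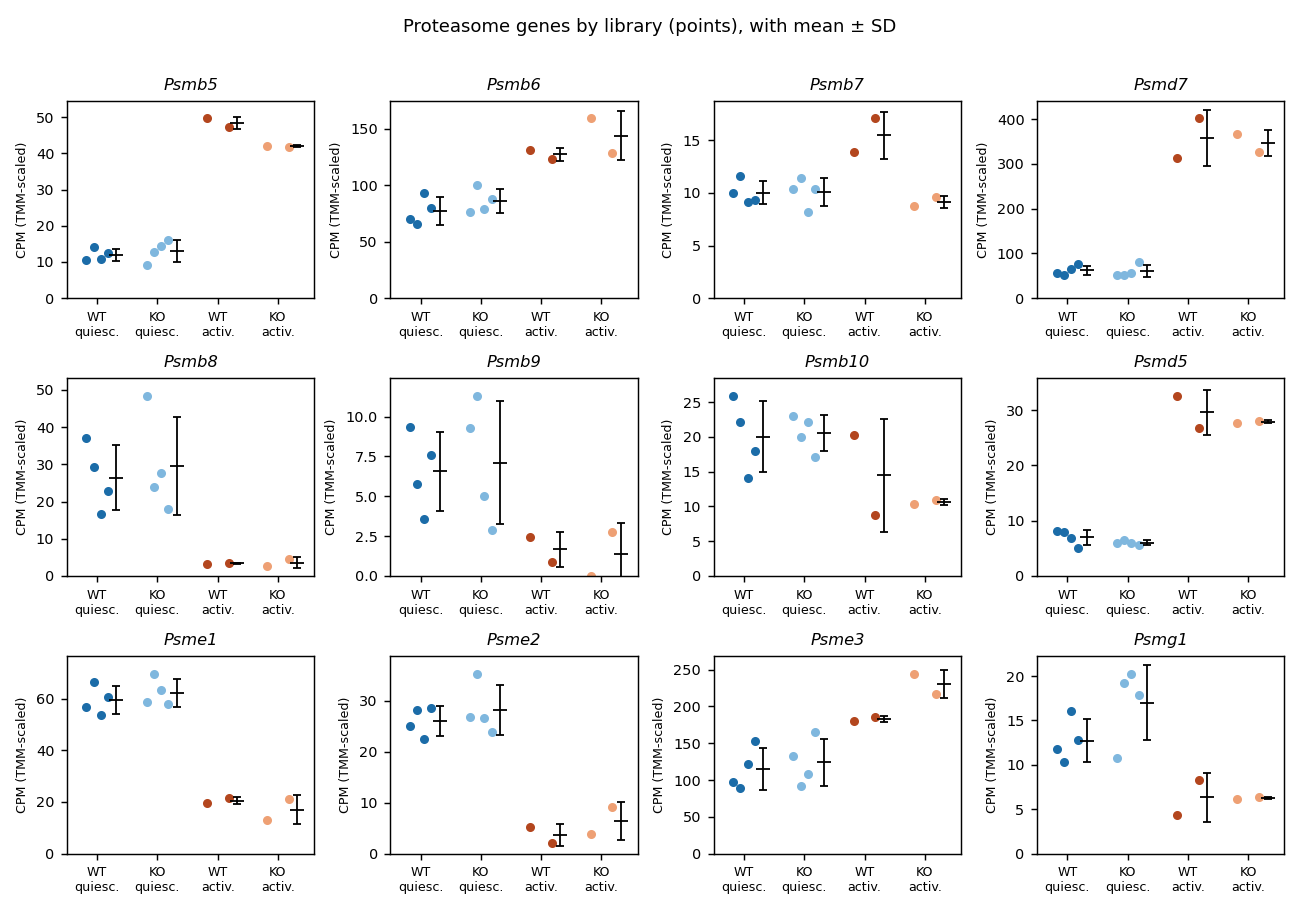
CPM of 12 proteasome genes in each library (points) with the mean ± SD of each group (bars), on axes that start at 0. The activated libraries lay above the quiescent libraries for Psmb5, Psmb6, Psmd7, Psmd5 and Psme3 in both genotypes, and below them for Psmb8, Psmb9, Psme1, Psme2 and Psmg1.

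Of the 3 inducible catalytic subunits, Psmb8 was lower in activated WT cells, and all 3 passed as lower in KO cells. The exons of Psmb8 overlap Gm20496 over 14.7% of their bases. Psmb8 (chromosome 17, 34197721 to 34201454) stood at 37.1, 29.2, 16.6 and 22.8 CPM in the WT quiescent and at 3.27 and 3.50 CPM in the WT activated libraries. In KO cells it stood at 48.3, 23.8, 27.8 and 17.9 CPM against 2.57 and 4.56 CPM. The lowest quiescent library was thus above the highest activated library in each genotype, although the quiescent libraries themselves were widely spread. Psmb8 fell by 2.97 ± 0.49 on the log2 scale in WT (edgeR adjusted p = 0.00012) and by 3.03 ± 0.48 in KO cells (edgeR adjusted p = 6.8e-05). Psmb9, whose exons overlap Tap1 over 5.79% of their bases (chromosome 17, 34181987 to 34187764), stood at 9.34, 5.75, 3.55 and 7.61 CPM in the WT quiescent and at 2.45 and 0.876 CPM in the WT activated libraries, the latter pair resting on 17 counts. Its log2 fold change of -1.83 ± 0.80 did not pass in WT cells (edgeR adjusted p = 0.089), and -2.32 ± 0.83 passed in KO cells (edgeR adjusted p = 0.036), where 1 activated library held no count. The KO call of Psmb9 was lost without KO quiescent replicate 1 (edgeR quasi-likelihood test, adjusted p = 0.0631), KO quiescent replicate 2 (0.0748) or KO activated replicate 1 (0.299).

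Psmb10 stood at 25.8, 22.2, 14.1 and 17.9 CPM in the WT quiescent and at 20.3 and 8.76 CPM in the WT activated libraries, which overlapped, and at 22.9, 19.9, 22.2 and 17.1 CPM against 10.3 and 10.9 CPM in KO cells, which did not. It passed in KO cells only, with a log2 fold change of -0.95 ± 0.36 (edgeR adjusted p = 0.045). That call was lost without KO quiescent replicate 1 (edgeR quasi-likelihood test, adjusted p = 0.0753), 2 (0.0610) or 3 (0.0778) and without KO activated replicate 1 (0.232) or 2 (0.190). The WT value of -0.42 ± 0.34 turned to 0.08 without WT activated replicate 2.

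Per kb of exon, Psmb8, Psmb9 and Psmb10 together made up 35.5%, 30.0%, 17.9% and 24.6% of the counts of the 6 catalytic subunits in the WT quiescent libraries and 9.45% and 4.94% in the WT activated libraries. In KO cells the share was 35.9%, 23.6%, 27.1% and 19.3% against 4.81% and 6.74%. The means were 27.0 ± 7.48% and 26.5 ± 7.06% (SD, n = 4) in quiescent and 7.20 ± 3.19% and 5.77 ± 1.36% (SD, n = 2) in activated WT and KO cells, and no activated library reached the lowest quiescent library of its genotype. The 3 replacement pairs differed, and their shares depend on the merged exon lengths used. These were 3381 bases for Psmb8 and 899 for Psmb5, 3660 for Psmb9 and 1872 for Psmb6, and 1705 for Psmb10 and 3421 for Psmb7. Without length, the WT quiescent libraries held 1501 counts of Psmb10 and 758 of Psmb7. Psmb8 made up 36.3 ± 8.31% of Psmb8 plus Psmb5 in WT quiescent and 1.83 ± 0.151% in WT activated cells, Psmb9 made up 4.31 ± 1.84% and 0.653 ± 0.411% of Psmb9 plus Psmb6, and Psmb10 made up 79.5 ± 3.42% and 62.6 ± 16.9% of Psmb10 plus Psmb7. The lowest share of Psmb10 in its pair, 50.7% in WT activated replicate 2, rested on 20 counts of Psmb10 against 39 of the longer Psmb7, so that no order of the pair can be read in that library.

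**Figure D4:**
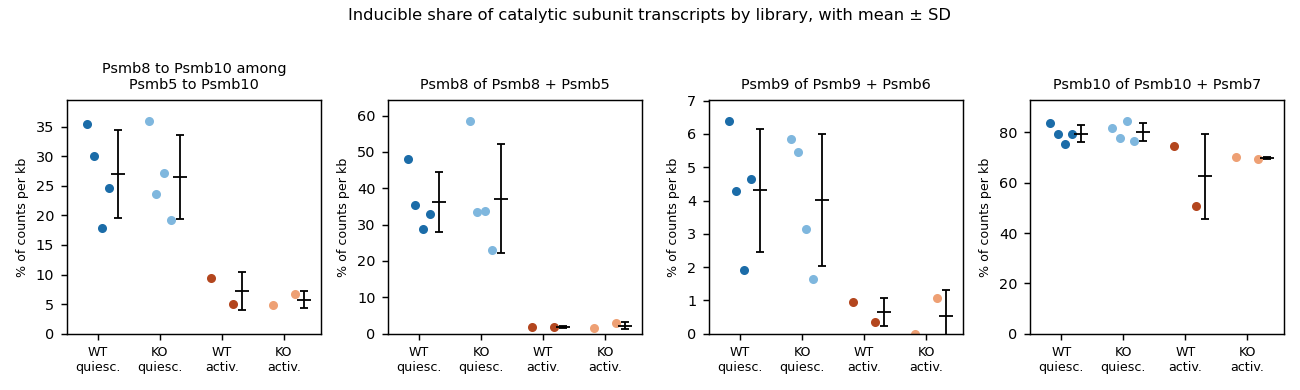
Share of Psmb8, Psmb9 and Psmb10 among the 6 catalytic subunits, and of each inducible subunit in its pair, as percent of counts per kb of exon in each library (points) with the mean ± SD of each group. The joint share was 17.9% to 35.9% in quiescent and 4.81% to 9.45% in activated libraries.

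Markers of other cells were read beside the spread of Psmb8 among quiescent libraries. In WT quiescent replicates 1 to 4, 8 endothelial markers summed to 1395, 1355, 563 and 658 CPM, and in KO quiescent replicates 1 to 4 to 1525, 521, 1320 and 306 CPM, so that the library highest in Psmb8 was also the highest in endothelial markers in each genotype. The lowest Psmb8 library was also the lowest for these markers in each genotype. Blood cell markers had another order: they were highest in replicate 4 of each genotype, at 234 and 423 CPM, and the latter was the KO quiescent library lowest in Psmb8. Progenitor markers were lowest, at 300 CPM, in KO quiescent replicate 1, which was highest in Psmb8. In activated libraries the endothelial markers summed to 121 to 614 CPM, against 306 to 1525 CPM in the quiescent libraries. The 10 blood cell markers summed to 101 to 423 CPM in quiescent and 47.0 to 75.7 CPM in activated libraries, with Cd52 and Tyrobp at 0 in both WT activated libraries. The 6 markers of fibroadipogenic progenitors summed to 300 to 2011 CPM and 224 to 675 CPM. In WT cells, 4 of the 8 endothelial, 4 of the 10 blood cell and 2 of the 6 progenitor markers were lower in activated cells and none was higher. In KO cells, 3, 8 and 2 of them were lower, and 1 progenitor marker was higher. Of all genes tested, 18.3% were lower in WT and 20.4% in KO cells. Of well expressed genes, 28.4% and 29.9% were lower, and the progenitor shares stood near these. The part of these cells in the levels of the inducible subunits and of PA28 was not tested.

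Of the activators, the PA28 pair was lower. Psme1 (chromosome 14, 55578123 to 55581529) stood at 56.7, 66.6, 53.8 and 60.7 CPM in the WT quiescent and at 19.4 and 21.5 CPM in the WT activated libraries, and in KO cells at 58.6, 69.5, 63.5 and 57.8 CPM against 13.1 and 21.0 CPM. The quiescent libraries of Psme1 were close to each other, unlike those of Psmb8. Psme1 fell by 1.54 ± 0.27 on the log2 scale in WT (edgeR adjusted p = 0.00021) and by 1.87 ± 0.27 in KO cells (edgeR adjusted p = 3.0e-05). Psme2, which lies near Psme1 on the same chromosome (55587441 to 55591113), stood at 25.1, 28.2, 22.5 and 28.6 CPM in the WT quiescent and at 5.23 and 2.19 CPM in the WT activated libraries. It fell by 2.69 ± 0.41 on the log2 scale in WT (edgeR adjusted p = 4.9e-05) and by 2.10 ± 0.38 in KO cells (edgeR adjusted p = 0.00028). The calls of Psmb8, Psme1 and Psme2 were kept without any single library of the compared groups.

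Psme3, which forms a nuclear PA28 ring of its own, went the other way, with 97.9, 88.8, 121 and 153 CPM in the WT quiescent and 180 and 185 CPM in the WT activated libraries. Its log2 fold change of 0.66 ± 0.27 did not pass in WT cells (edgeR adjusted p = 0.069). It passed there in several other settings, DESeq2 and the fit without WT quiescent replicate 4 among them (0.84, edgeR adjusted p = 0.0263). In KO cells, Psme3 passed at 0.89 ± 0.27 (edgeR adjusted p = 0.015), but not without KO activated replicate 1 (adjusted p = 0.138). Psme4, the activator PA200, gave -0.31 ± 0.28 and -0.09 ± 0.27 and passed in neither genotype. Psmf1, the inhibitor PI31, rose by 1.15 ± 0.32 in WT and 1.63 ± 0.31 in KO cells, from 8.57 ± 1.29 to 18.9 ± 1.40 CPM in WT cells (SD, n = 4 and 2). Its WT call was lost without WT activated replicate 1 (1.14, edgeR adjusted p = 0.0793).

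Of the 7 dedicated assembly chaperones, 3 were higher and 1 was lower in activated cells of each genotype. Of all genes, 11.5% were higher and 18.3% lower in WT cells, and 13.3% and 20.4% in KO cells. Psmd5, a chaperone of the base of the cap, stood at 8.09, 7.88, 6.89 and 5.06 CPM in the WT quiescent and at 32.5 and 26.7 CPM in the WT activated libraries, a log2 fold change of 2.09 ± 0.28 (edgeR adjusted p = 1.5e-05), and gave 2.22 ± 0.28 in KO cells. Of the other base chaperones, Psmd9 gave 0.37 ± 0.29 in WT cells, and Psmd10, known as gankyrin and the one X-linked gene of the set, held 67 counts in all WT quiescent libraries and gave 1.50 ± 0.92. Neither passed. Psmd10 stood at 0.940, 0.355, 1.05 and 0.963 CPM in the WT quiescent and at 3.27 and 1.31 CPM in the WT activated libraries, and at 1.25, 0.0683, 0.457 and 1.32 CPM against 2.06 and 1.37 CPM in KO cells. Psmg3, a chaperone of the alpha ring, stood at 1.93, 4.90, 4.17 and 4.00 CPM in the WT quiescent and at 14.2 and 18.4 CPM in the WT activated libraries, a log2 fold change of 2.11 ± 0.40 (edgeR adjusted p = 0.00043), and gave 2.13 ± 0.39 in KO cells. Psmg2, which pairs with PSMG1, was also higher (1.68 ± 0.44 and 1.32 ± 0.44). Its WT call was lost without WT activated replicate 1 (1.55, edgeR adjusted p = 0.095), and its KO call without KO quiescent replicate 1 (0.0544) or 4 (0.0508) or KO activated replicate 1 (0.0999) or 2 (0.191). Psmg4, a partner of PSMG3, gave 0.43 in WT and 0.88 in KO cells and passed in neither.

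Psmg1, the partner of PSMG2, was lower. It stood at 11.8, 10.3, 16.1 and 12.8 CPM in the WT quiescent and at 4.41 and 8.32 CPM in the WT activated libraries, and in KO cells at 10.8, 19.2, 20.2 and 17.8 CPM against 6.16 and 6.39 CPM. Psmg1 fell by 1.07 ± 0.39 on the log2 scale in WT (edgeR adjusted p = 0.047) and by 1.44 ± 0.39 in KO cells (edgeR adjusted p = 0.0074). The WT call was lost when any single WT library was left out, with adjusted p-values of 0.0552 to 0.574, and the KO call without KO activated replicate 1 (0.0742) or 2 (0.0669). The fitted values of Psmg1 and Psmg2, whose products act as a dimer, lay on opposite sides of 0, with the losses of calls given for each.

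Psmc3ip, the recombination factor, stood at 1.92 ± 0.733 CPM in WT quiescent and 7.40 ± 1.92 CPM in WT activated cells. Its calls were lost without WT activated replicate 2 (edgeR adjusted p = 0.123) or KO activated replicate 1 (0.525), and 21.2% of its exon bases overlap Mlx. The counting strand was not given in the sources used here, so reads of such overlapping genes, which concern 14 of the 50, cannot be assigned with certainty.

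Genes that act with the proteasome were counted in lists grouped by function. Beside the counts stand the shares over all genes, 11.5% higher and 18.3% lower in WT and 13.3% and 20.4% in KO cells, and over well expressed genes, 24.2% and 28.4% in WT and 26.8% and 29.9% in KO cells. Of 12 partners, 6 were higher and 1 was lower in WT cells, and 5 and 1 in KO cells. Usp14, a deubiquitinase of the cap, gave 1.58 in WT and 1.25 in KO cells, Adrm1, a ubiquitin receptor, gave 0.98 and 1.19, and Zfand5, a proteasome-binding zinc finger protein, gave -1.76 and -1.85. Pomp, the maturation factor of the 20S core, gave 0.32 in WT cells, where it did not pass, and 0.86 in KO cells, where it did. Among 9 genes that control proteasome transcription, 3 were higher and 4 lower in WT cells and 3 and 3 in KO cells. Nfe2l1, the factor known to restore proteasome levels, gave 0.73 and 0.93, its protease Ddi2 gave 0.84 and 1.53, and Keap1, the inhibitor of NFE2L2, gave 1.84 and 2.27, whereas Nfe2l2 gave -0.98 and -1.63 and Mafk, a partner of both factors, gave -2.22 and -3.09. Of 10 genes of substrate shuttling and unfolding, 7 were higher and 1 was lower in each genotype, among them Nploc4 (1.63 and 1.61) and Vcp (1.00 and 1.10). Ubb, which encodes polyubiquitin, was lower, at -1.36 and -1.49. These log2 fold changes passed the edgeR test at an adjusted p-value under 0.05 except where stated.

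The genes that work with the inducible subunits in antigen presentation were lower as well. Of the 8 listed, 8 were lower in WT cells and 7 in KO cells, with medians of -2.45 and -2.81. Irf1, a transcription factor of the interferon response, gave -3.63 and -3.77, B2m, the light chain of MHC class I, gave -2.73 and -2.92, and Tap1, the peptide transporter that neighbours Psmb9, gave -2.97 and -2.84. Of all genes, 18.3% were lower in WT and 20.4% in KO cells, and of well expressed genes 28.4% and 29.9%. The list was drawn up with earlier results of these data known, so its counts describe these 8 genes and are no test. The marker values given above for endothelial and blood cells apply to these genes as well.

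The comparison of Cxcr4 KO with WT cells asked whether loss of the receptor changed proteasome transcripts in either state. No difference was detected. In quiescent cells, 0 of 48 genes passed and 0 had an unadjusted p-value under 0.05 (edgeR), and DESeq2 also called 0, where 0.0155% of all genes, or 4, passed in edgeR. The median log2 fold change was 0.07, against 0.02 over all genes. Leaving out Psmb11, which is described next, the values ranged from -0.22 (Psmd5) to 0.42 (Psmg1), with SEs of 0.18 to 0.75 and a median SE of 0.23. Psmg1, the gene with the lowest p-value, stood at 10.8, 19.2, 20.2 and 17.8 CPM in KO and 11.8, 10.3, 16.1 and 12.8 CPM in WT quiescent libraries, which overlapped, and the 95% interval of its log2 fold change ran from -0.12 to 0.96. Psmc2 gave 0.25 ± 0.19 and Psma6, an alpha subunit, 0.37 ± 0.29. The KO quiescent libraries of Psma6, at 10.4, 16.5, 12.5 and 12.8 CPM, overlapped those of WT cells, at 5.85, 14.3, 11.7 and 8.48 CPM.

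In activated cells, 0 of 48 genes passed in edgeR and DESeq2, and 1 had an unadjusted p-value under 0.05, where 0.0504% of all genes, or 13, passed in edgeR. The median was 0.05, against 0 over all genes. That gene was Psmb11, the thymic catalytic subunit, which held 3 and 1 counts in the WT and 0 counts in both KO activated libraries, so no fold change is given for it. Its KO activated level passed against the quiescent KO level (edgeR adjusted p = 0.0487), but not without KO quiescent replicate 2 (0.0760) or 3 (0.0770) or either KO activated library (0.253 at most), and both groups were near the limit of detection. The other values ranged from -0.75 (Psmb7) to 0.88 (Psma5), with SEs of 0.25 to 1.13. The median SE was 0.33 with 2 libraries per group, so that only differences of several such SEs could have passed. Cxcr4 itself, the targeted gene, gave -1.35 ± 0.46 and did not pass in activated cells (edgeR adjusted p = 0.38). Psma3 stood at 65.7 and 52.0 CPM in KO and 31.5 and 44.2 CPM in WT activated libraries, which did not overlap, with a log2 fold change of 0.65 ± 0.31 (edgeR adjusted p = 0.60). Psma5 gave 12.6 and 17.1 CPM against 9.31 and 6.57 CPM, a log2 fold change of 0.88 ± 0.42 (edgeR adjusted p = 0.60), with the reservation about copies given above for both genes. Psmb7 gave 8.73 and 9.58 CPM in KO and 13.9 and 17.1 CPM in WT libraries, a log2 fold change of -0.75 ± 0.38 (edgeR adjusted p = 0.62).

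**Figure D5:**
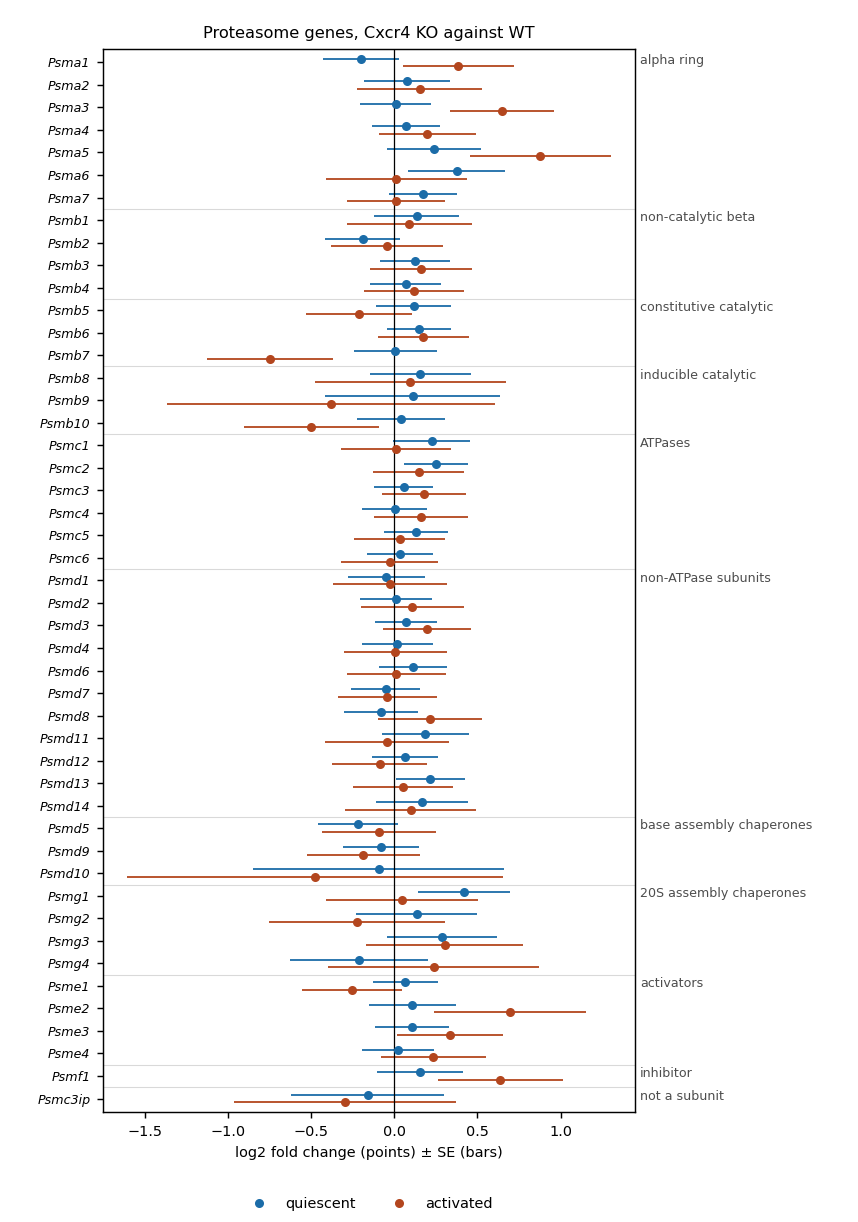
log2 fold change of Cxcr4 KO against WT cells ± SE for 47 proteasome genes in the quiescent (blue) and activated (red) state, grouped by role, without Psmb11. No gene passed at an adjusted p-value under 0.05, and the SEs of the activated state (median 0.33) were wider than those of the quiescent state (median 0.23).

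The difference of the KO effect between the states, which is also the difference of the activation response between genotypes, was tested in the same fit. It was called for 0 of the 48 genes, with 0 at an unadjusted p-value under 0.05 and 0 in DESeq2, where 0% of all genes passed in edgeR. The median was -0.03. The lowest p-values after that of Psmb11 belonged to Psma3 (0.64 ± 0.38, edgeR adjusted p = 0.84) and Psmb7 (-0.75 ± 0.45, edgeR adjusted p = 0.85), whose 95% intervals ran from -0.10 to 1.38 and from -1.64 to 0.13. Thus the genes that passed in activated cells of a single genotype were not shown to differ between genotypes.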

How the data were processed

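The 12 libraries were polyA RNA sequenced from NEBNext Ultra libraries. Per the labels and the methods of the study, the authors trimmed reads with Trim Galore 0.6.0, aligned them with STAR 2.7.2a to GRCm38.p6 and deposited raw counts per gene of a GENCODE annotation, tested by them with DESeq2 1.34.0. The authors also deposited FPKM as 1 value per group, which entered no test, and columns of their own comparisons, which were not used. The strand setting of the counting is not given in the sources used here.

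Counts were fitted with edgeR 4.0.16 in R 4.3.3: TMM factors, filterByExpr, 1 mean for each of the 4 groups over all 12 libraries, quasi-likelihood tests and Benjamini-Hochberg adjustment over 25771 genes. A gene was called at an adjusted p-value under 0.05. SEs were the log2 fold change divided by the root of the F statistic, and 95% intervals were 1.96 SEs to each side. Levels per kb used the merged exons of all transcripts of a gene in the GENCODE M21 annotation. Depth, 3172164 to 23717013 counts per library, sets the precision of genes with few counts. Processed copies of members were found with blastn 2.17.0. DESeq2 1.42.0, other scalings, filters and fits, a block on the replicate number, and fits without each single library, were tried as alternatives. The fit was also run on simulated counts, with planted changes larger than any KO against WT value given here for a proteasome gene. That run gives no measure of how well smaller differences would be found.

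Members and lists were chosen with earlier results of these data known. Genes given by library were the catalytic subunits, Psme1 to Psme4, the 3 highest and 3 lowest in activated against quiescent WT cells, the 3 with the lowest p-values in each comparison of KO and WT, and Psmd10 on the X chromosome. Values of Psma4, Psmc2 and Psmf1 were added after they were seen. Some genes of the lists are not reported here by name.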

Additional observations from a re-analysis of the deposited data

Results flagged for a closer look

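Psmd10, the base chaperone gene on the X chromosome, stood at 0.355 CPM in WT quiescent replicate 2, below the other WT quiescent libraries at 0.940 to 1.05 CPM. The gap to the nearest library was 0.838 of the range of the group, above Dixon's critical value for 4 samples at the 95% level. The library held 5 counts of Psmd10. Of 42 such tests this was the only value past the limit, and chance passes about 1 in 20 groups.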

How the results depend on the processing

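Without a single library, the calls ranged from 17 to 28 in WT and from 14 to 31 in KO cells for activated against quiescent cells. Their medians ranged from 0.60 to 0.78 and from 0.58 to 0.88, and the medians of KO against WT activated cells from -0.077 to 0.13 and of the difference between states from -0.15 to 0.0455. KO calls fell from 32 to 21 under the study's thresholds. A replicate block gave medians of 0.83 in WT and 0.90 in KO cells and 29 and 34 calls, but same-numbered quiescent libraries correlated at 0.311, 0.161, -0.350 and 0.657, so the numbers were not taken as pairs. Crossed numbers of the activated libraries gave 0 calls for KO against WT. Without both activated libraries numbered 2, an alternative chosen after seeing the data like that of the copies, the KO median was 0.88. The inducible share on raw counts was 34.6% in WT and 34.1% in KO quiescent and 7.49% in KO activated cells. Psmb10 in WT cells turned to 0.054 without both libraries numbered 2, and ranged from -1.11 to 0.077 without a single library, turning without WT activated replicate 2. Psme4 in KO cells turned to 0.17 with the block, and ranged from -0.18 to 0.13 without a single library, turning without KO quiescent replicate 4. DESeq2 gave 31 and 34 calls. No alternative gave a call in KO against WT cells or in the difference between states. The cause of these changes was not tested. With 2 activated libraries per genotype and at most 5427280 counts in each, changes in genes with few counts could not be resolved.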
